A study of Saccharomyces cerevisiae with 6 samples.

Results

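The 32 genes described here make ergosterol, regulate its synthesis, or esterify and import sterols in the budding yeast Saccharomyces cerevisiae. They were chosen by name, with earlier results of these data known, from the 5449 yeast genes that the array annotation identifies. All 32 were found, each with 1 probe set. The samples are RNA from 6 cultures of the yeast strain 26972c, each hybridised to an Affymetrix Yeast Genome 2.0 array. This strain carries the mep1-1 mutation and a deleted MEP2 gene, both in ammonium permeases, keeps MEP3, and is ura-. The control group was 3 cultures with the expression vector pYES3 alone. The other group was 3 cultures with GmbHLHm1 (SAT1) cloned in that vector behind a promoter that galactose activates; this soybean gene encodes a transcription factor of the basic helix-loop-helix class. Cultures of both groups were pre-grown on glucose and proline and then kept for 12 h in 2% galactose with 1 mM ammonium (0.5 mM ammonium sulfate). The comparison asks whether sterol gene transcripts differ in level when the soybean gene is present.

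Ergosterol is the main sterol of fungal membranes, as cholesterol is in animals. Its synthesis runs from acetyl-CoA through mevalonate to farnesyl diphosphate, then through squalene to lanosterol, and last through a series of demethylations, reductions and desaturations to ergosterol. Several of the later enzymes use molecular oxygen and heme, and the zinc cluster factors Upc2 and Ecm22 raise transcription of many of the genes when sterols run low.

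Values are log2 RMA intensities, and changes are GmbHLHm1 minus empty vector on that scale. Array medians over the 5449 genes lay between 10.32 and 10.37. Correlations across genes were 0.9986 to 0.9987 between empty vector arrays and 0.9938 to 0.9963 between GmbHLHm1 arrays. All 32 genes lay above the background level on all 6 arrays, and the deleted MEP2 did so on none. Ribosomal RNA controls (18S and 25S, 16 probe sets) were dimmer on the GmbHLHm1 arrays, with a median change of -1.01, and the part of this in the results below was not tested. The soybean transcript itself was not measured here. The labels call the cultures independent, but they were seeded from starter cultures, so the p-values cover no more than the spread among these samples. Starter culture or transformant and construct cannot be told apart. In RNA of whole cultures, fewer cells with a transcript and less of it per cell cannot be told apart either.

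Most sterol genes differed little between the groups. ERG1, the squalene epoxidase gene, and ERG6, the sterol methyltransferase gene, rose, and HMG1, a gene for HMG-CoA reductase, and ERG28, a scaffold gene, fell. These were 4 of 32 genes past limma's test at an adjusted p of 0.05 (Benjamini-Hochberg over all 5449 genes, two-sided), or 12.5%, where 12.1% of all tested genes passed. At this threshold the share of sterol genes that changed was thus near that of the whole array. At looser limma thresholds it was higher, 28.1% against 18.1% of all genes at an adjusted p of 0.1. At an unadjusted p of 0.05 it was 37.5% against 26.9%. By direction, 2 of 32 (6.25%) rose against 7.45% of all genes, and 2 of 32 (6.25%) fell against 4.64%. None of the 32 changed by 1 or more on the log2 scale, which 1.08% of all tested genes did. With a share that low, few or none would be met among 32 genes, so this count does not set them apart. The median absolute change was 0.121 over the 32 genes and 0.0865 over all tested genes.

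**Figure D1:**
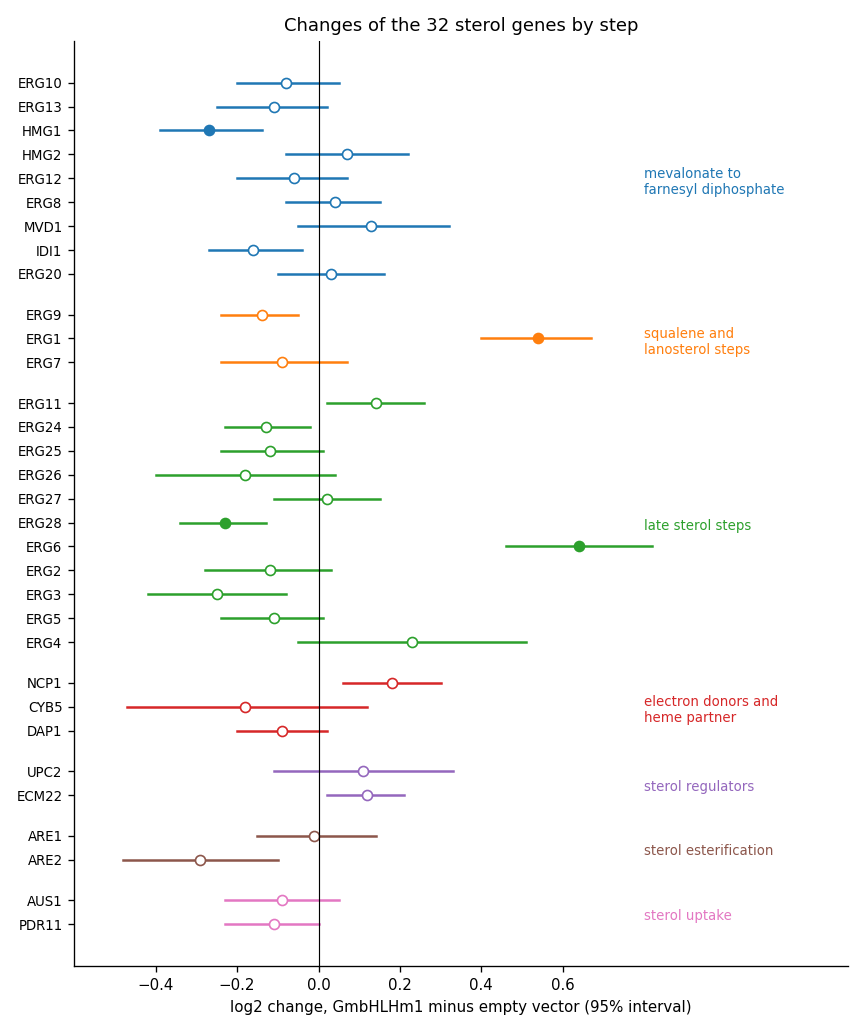
Log2 change (GmbHLHm1 minus empty vector) of each of the 32 sterol genes with its 95% interval from limma, grouped by step; filled points passed the test at an adjusted p of 0.05. ERG1 at 0.54 and ERG6 at 0.64 stand to the right of all others, and the remaining points lie between -0.29 and 0.23.

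Of the 28 genes that did not pass, 18 had a negative change, with a median of -0.09, and in 12 of them the groups did not overlap. Over all 32 genes 20 changes were negative, again with a median of -0.09, whereas the median over all tested genes was 0.02. In 16 of the 32 (50.0%) the groups did not overlap, against 33.2% of all genes. In 11 of the 32 (34.4%) they lay apart with the GmbHLHm1 arrays lower, against 13.9% of all genes. In 5 of the 32 (15.6%) they lay apart with the GmbHLHm1 arrays higher, against 19.3% of all genes. The SD between cultures of a single sterol gene had a median of 0.0433 in the empty vector group and 0.0742 in the GmbHLHm1 group, against 0.0502 and 0.0875 over all tested genes.

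Among the 9 genes that lead from acetyl-CoA to farnesyl diphosphate, 1 fell, none rose and 8 did not pass the test, and the median change was -0.06. HMG1 encodes 1 of 2 HMG-CoA reductases, the enzymes that make mevalonate and the main point of control in the early pathway. Its log2 level was 13.11, 13.06 and 13.10 on the empty vector arrays and 12.78, 12.78 and 12.91 on the GmbHLHm1 arrays. The groups did not overlap, and the third GmbHLHm1 array was the closest to the controls. HMG1 fell by 0.27 ± 0.05 (SE, n = 3 per group; limma adjusted p = 0.0196), to 0.831 of the control intensity (95% interval 0.762 to 0.905). Without empty vector replicate 1, 2 or 3 the limma adjusted p of HMG1 was 0.094, 0.0643 and 0.0824, so this call needed all 3 controls. Its change was -0.26, -0.28 and -0.26 in these fits, where calls over all genes dropped from 659 to 251, 341 and 293. Over all 15 alternative fits the adjusted p of HMG1 ran from 0.00176 to 0.094.

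HMG2, the other reductase gene, lay at 11.96, 11.91 and 12.04 with the empty vector and at 11.93, 12.10 and 12.07 with GmbHLHm1. The groups overlapped, and the log2 change of 0.07 ± 0.06 (SE; limma adjusted p = 0.554) did not pass. IDI1, the isomerase gene that interconverts both isoprenoid building blocks, had 12.62, 12.61 and 12.56 in the control group and 12.50, 12.41 and 12.41 in the other. These groups did not overlap, but its change of -0.16 ± 0.05 (SE; limma adjusted p = 0.0842) missed the threshold; without GmbHLHm1 replicate 1 its adjusted p was 0.041, the lowest when 1 array was left out, and otherwise it reached up to 0.259. IDI1 also passed with median centring, with array weights and with a trend and robust prior. The other 6 were the thiolase gene ERG10, the HMG-CoA synthase gene ERG13, the kinase genes ERG12 and ERG8, the decarboxylase gene MVD1 and the farnesyl diphosphate synthase gene ERG20. Their changes ran from -0.11 for ERG13 to 0.13 for MVD1, and the groups overlapped in each of them.

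Of the 3 genes that turn farnesyl diphosphate into lanosterol, 1 rose and 2 did not pass. ERG1 encodes squalene epoxidase, the first step that uses oxygen and the target of allylamine antifungals. Its log2 levels were 12.76, 12.90 and 12.81 with the empty vector and 13.31, 13.32 and 13.44 with GmbHLHm1. Each GmbHLHm1 array stood well above the highest control. The rise was 0.54 ± 0.06 (SE, n = 3 per group; limma adjusted p = 0.00185), a fold of 1.45 (95% interval 1.32 to 1.60), and ERG1 passed in all 15 alternative fits, with an adjusted p of at most 0.0299.

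Neither gene next to ERG1 in the pathway passed the test. ERG9, the squalene synthase gene that acts just before ERG1, had 13.04, 13.02 and 13.00 in the control group and 12.86, 12.88 and 12.88 with GmbHLHm1. These groups lay apart by more than either group's spread, although the change of -0.14 ± 0.04 (SE; limma adjusted p = 0.0687) missed the threshold; leaving out 1 array gave an adjusted p of 0.0889 to 0.238. ERG9 passed with median centring, with a trend and robust prior and without moderation. ERG7, the lanosterol synthase gene that acts just after, had a change of -0.09 ± 0.07 (SE; limma adjusted p = 0.458) and overlapping groups. The differences between the changes of these 3 genes were not tested.

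**Figure D2:**
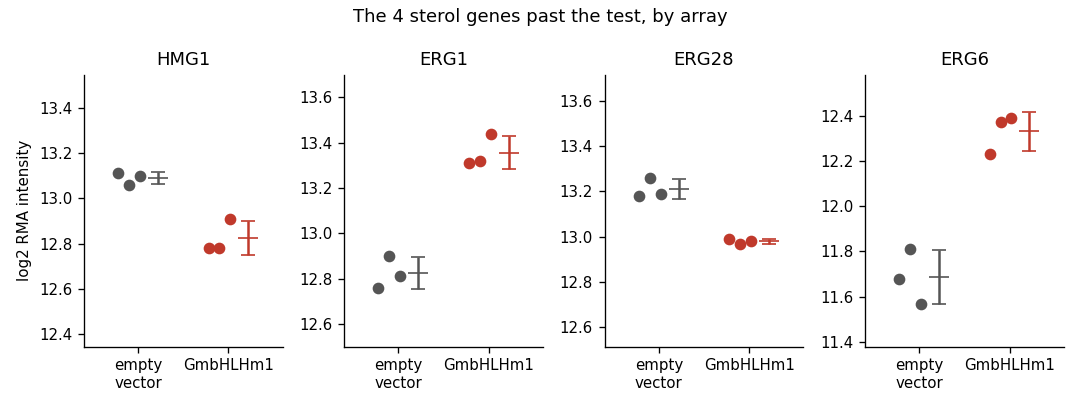
Log2 RMA intensity of HMG1, ERG1, ERG28 and ERG6 on each array (points), with mean and SD beside them (bar, n = 3 per group), grey for empty vector and red for GmbHLHm1; each vertical axis spans the same log2 range around its own centre. The groups are apart in all 4 genes, by 0.54 and 0.64 upward for ERG1 and ERG6 and by smaller downward steps for HMG1 and ERG28.

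Of the 11 genes for the late steps from lanosterol to ergosterol, 1 rose, 1 fell and 9 did not pass, with a median change of -0.12. ERG6 encodes the methyltransferase that adds a methyl group to the sterol side chain, a group that cholesterol lacks. It lay at 11.68, 11.81 and 11.57 on the empty vector arrays and at 12.23, 12.37 and 12.39 on the GmbHLHm1 arrays. All GmbHLHm1 arrays exceeded all controls. ERG6 rose by 0.64 ± 0.08 (SE, n = 3 per group; limma adjusted p = 0.00246), a fold of 1.56 (95% interval 1.38 to 1.77), the highest of the 32 changes. It passed in all 15 alternative fits, with an adjusted p of at most 0.0409.

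ERG28 encodes a membrane protein that holds the enzymes of sterol demethylation together. Its levels were 13.18, 13.26 and 13.19 with the empty vector and 12.99, 12.97 and 12.98 with GmbHLHm1, so the 3 GmbHLHm1 arrays were nearly equal and all below the controls. It fell by 0.23 ± 0.04 (SE, n = 3 per group; limma adjusted p = 0.0176), to 0.851 of the control intensity (95% interval 0.791 to 0.915). As with HMG1, the call was lost without empty vector replicate 1, 2 or 3, where the limma adjusted p of ERG28 was 0.0655, 0.0793 and 0.0689. Its change was -0.25, -0.21 and -0.24 in these fits, which gave fewer calls over all genes too. Over the 15 alternative fits the adjusted p of ERG28 ran from 0.00102 to 0.0793. The 3 enzymes of that demethylation complex did not pass. ERG25, the methyl oxidase gene, had a change of -0.12 ± 0.05 (SE; adjusted p = 0.203 with limma), ERG26, the dehydrogenase gene, -0.18 ± 0.09 (SE; 0.276), and ERG27, the keto reductase gene, 0.02 ± 0.06 (SE; 0.849). The groups of ERG25 did not overlap, whereas those of ERG26 and ERG27 did. Leaving out 1 array moved the change of ERG26 between -0.27 and -0.10 (limma adjusted p 0.0769 to 0.546).

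ERG3, a desaturase gene for the sterol ring, had 13.65, 13.67 and 13.64 in the control group and 13.46, 13.25 and 13.50 with GmbHLHm1. The groups did not overlap, but the GmbHLHm1 cultures were spread widely, and the change of -0.25 ± 0.07 (SE; limma adjusted p = 0.0668) missed the threshold. ERG3 passed with median centring, with array weights and with a trend and robust prior, and in none of the 6 fits without 1 array (adjusted p 0.0591 to 0.195). ERG11, the lanosterol demethylase gene whose product is the target of azole antifungals, had 13.82, 13.84 and 13.72 against 13.95, 13.89 and 13.95. It was among the few late genes with a positive change, 0.14 ± 0.05 (SE; limma adjusted p = 0.138), and its groups did not overlap. ERG4, the reductase gene of the final step, varied most between GmbHLHm1 cultures, with 10.64, 10.34 and 10.84 against 10.31, 10.41 and 10.40 in the controls. Its change of 0.23 ± 0.12 (SE; limma adjusted p = 0.262) rested on which cultures were counted: without GmbHLHm1 replicate 2 it was 0.36 (adjusted p = 0.0277), and in the other fits without 1 array the adjusted p was up to 0.519. The remaining late genes did not pass and had negative changes. They were -0.11 for ERG5, the side chain desaturase gene, and -0.12 for ERG2, the isomerase gene. ERG24, the reductase gene that follows ERG11, had -0.13. The groups of ERG5 and ERG24 did not overlap, and those of ERG2 did.

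Neither the electron donors nor Dap1 showed a change that passed the test. NCP1 encodes the reductase that feeds electrons to the cytochrome P450 enzymes Erg11 and Erg5 and to squalene epoxidase. It had 12.45, 12.49 and 12.48 in the control group and 12.58, 12.69 and 12.71 with GmbHLHm1. The groups did not overlap, and the change of 0.18 ± 0.05 (SE; limma adjusted p = 0.0621) lay just outside the threshold; over the 15 alternative fits the adjusted p ran from 0.0175 to 0.212, and 4 of them passed. CYB5, the cytochrome b5 gene, had 1 low GmbHLHm1 array, with 11.93, 11.46 and 11.84 against 11.83, 12.06 and 11.88, and its groups overlapped. DAP1, for a heme-binding partner of Erg11, had a change of -0.09 ± 0.04 (SE; limma adjusted p = 0.252), and its groups did not overlap.

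The transcripts of the sterol-sensing factors themselves did not pass either. UPC2 lay at 9.14, 8.99 and 9.16 in the control group and 9.02, 9.25 and 9.35 with GmbHLHm1, with overlapping groups and a change of 0.11 ± 0.09 (SE; limma adjusted p = 0.501). ECM22, its paralog, had 10.71, 10.76 and 10.76 against 10.85, 10.87 and 10.86. All GmbHLHm1 arrays of ECM22 were above all controls, by 0.12 ± 0.04 (SE; limma adjusted p = 0.121), and it passed only in the fit without moderation among the 15 alternatives, whose adjusted p ran from 0.0394 to 0.356.

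Of the genes that store sterol as esters, ARE2, the acyltransferase gene that esterifies ergosterol under aerobic growth, had 11.05, 10.99 and 11.01 in the control group and 10.63, 10.91 and 10.65 with GmbHLHm1. The groups did not overlap, and GmbHLHm1 replicate 2 was the array nearest the controls. Its change of -0.29 ± 0.08 (SE; limma adjusted p = 0.0603) missed the threshold, and without GmbHLHm1 replicate 2 it was -0.38 with an adjusted p of 0.00571; over the 15 alternatives the adjusted p reached up to 0.203. ARE1, the other acyltransferase gene, had 11.36, 11.37 and 11.46 against 11.31, 11.37 and 11.49, and a change of -0.01 ± 0.06 (SE; limma adjusted p = 0.958). Both groups of ARE1 covered nearly the same range.

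AUS1 and PDR11 encode ATP-driven transporters that import sterol when oxygen is scarce. AUS1 had 10.90, 10.87 and 11.01 in the control group and 10.77, 10.82 and 10.91 with GmbHLHm1, and the groups overlapped. PDR11 had 10.01, 9.92 and 9.97 against 9.81, 9.88 and 9.88, without overlap. Their changes of -0.09 ± 0.06 (SE; limma adjusted p = 0.365) and -0.11 ± 0.05 (SE; 0.186) did not pass.

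For the 28 genes that did not pass, each interval gives a range of change for that gene alone, in these samples. The intervals were not adjusted for their number. The 95% intervals of 27 of them lay within 0.5 either way on the log2 scale, and that of ERG4 reached 0.51. The lowest bound was -0.48, for ARE2. In 20 of the 28 the interval included 0.

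Members of the 4 paralog pairs were then set against each other within each array, which shows unequal change but not which member changed. The log2 ratio of HMG1 to HMG2 was 1.15, 1.16 and 1.07 on the control arrays and 0.85, 0.68 and 0.84 on the GmbHLHm1 arrays, a difference of -0.33 without overlap. That of ARE1 to ARE2 was 0.30, 0.38 and 0.45 against 0.68, 0.46 and 0.84, a difference of 0.28, also without overlap. Both gave p = 0.1 in an exact permutation test (two-sided, n = 3 per group), the smallest that this design allows, and 0.2 after adjustment over the 4 pairs. The ratios of UPC2 to ECM22 and of AUS1 to PDR11 differed by -0.01 and 0.02, with overlapping groups and p = 0.9 in the same exact test.

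**Figure D3:**
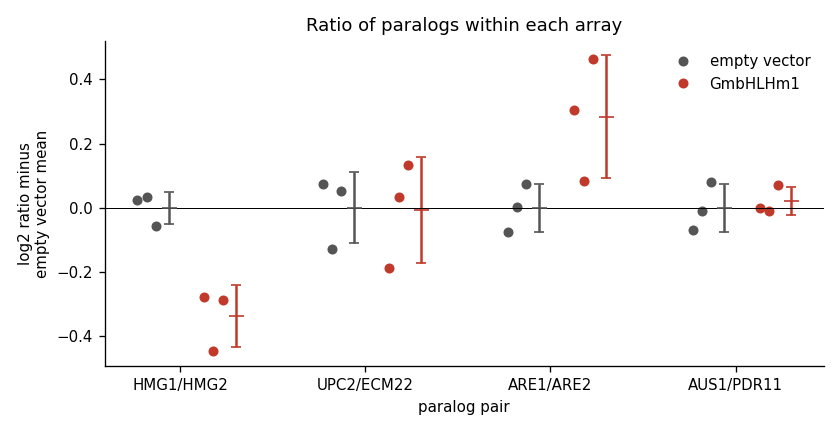
Log2 ratio of each paralog pair on each array, minus the empty vector mean of that pair (points), with group mean and SD (bars, n = 3 per group). The HMG1/HMG2 ratio lies lower on all GmbHLHm1 arrays and the ARE1/ARE2 ratio higher, while the groups of the other pairs overlap.

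The GmbHLHm1 cultures differed among themselves in these genes. The third GmbHLHm1 array was the highest of its group in 23 of the 32 genes and the lowest in 0, whereas it was the highest in 25.0% and the lowest in 33.1% of all tested genes. Its median deviation from the group mean was 0.069 over the sterol genes and -0.0093 over all genes. Without that array, 21 of 32 changes were negative with a median of -0.12, against 20 and -0.09 with all arrays, and the calls were the same 4. Among the controls, empty vector replicate 2 was the highest in 20 of 32 genes, against 43.9% of all genes. Without GmbHLHm1 replicate 2 the median of the 32 changes was -0.04.

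**Figure D4:**
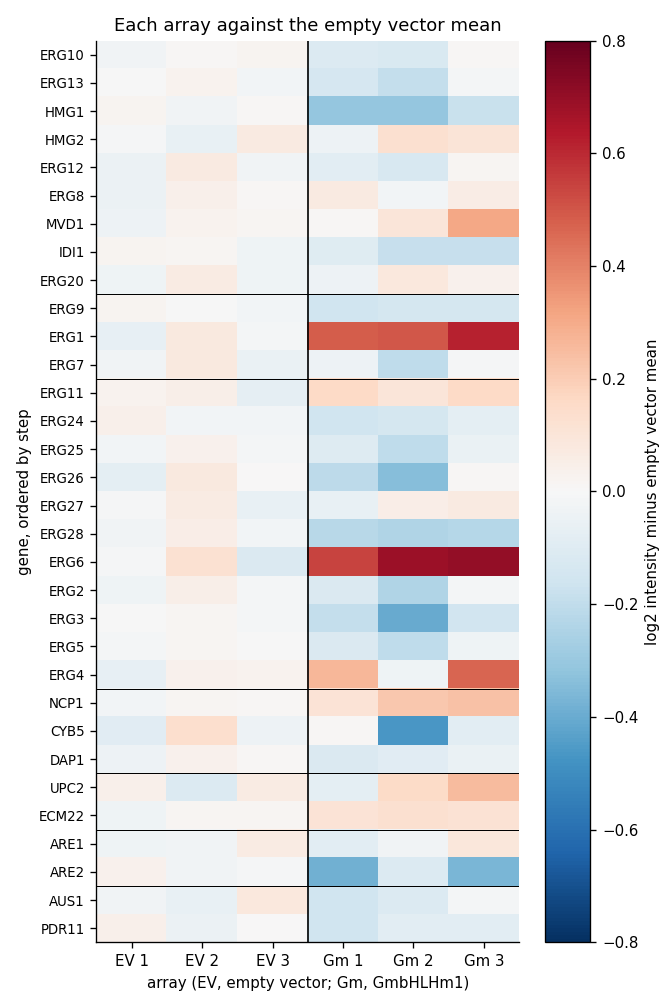
Log2 intensity of the 32 sterol genes on each array minus the gene's mean over the empty vector arrays (red higher, blue lower), with genes ordered by step and horizontal lines between steps. ERG1 and ERG6 are red on all 3 GmbHLHm1 arrays, and the paler blue of many other genes is weakest on GmbHLHm1 array 3.

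The neighbours of the 4 changed genes along the chromosome were looked up after their values were seen. ERG1 lies beside ATF2, which encodes an acetyltransferase that acts on sterols, and ATF2 had a change of 0.55 ± 0.21 (SE; limma adjusted p = 0.153), which did not pass. On the other side of ERG1, the small gene YGR174W-A fell by 0.47 ± 0.11 (SE; limma adjusted p = 0.0306). This call was not followed through the fits that left out 1 array. The tested neighbours of HMG1 (WAR1 and FPR3), ERG28 (SAH1) and ERG6 (MRPL39) did not pass, with changes between 0.03 and 0.08. MEI4, on the other side of ERG28, was above the background level on 1 of 6 arrays and did not pass either.

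Genes around the pathway were read from 5 further lists, 68 genes in all, each tested in the same fit. Of 13 other regulators of sterol and low-oxygen genes, 1 rose and 1 fell, and the median change was 0.00. That was 15.4% of the list, where 12.1% of all tested genes passed. SUT1, a transcription factor gene of sterol uptake, had 9.23, 9.27 and 9.63 in the control group and 10.01, 9.87 and 10.03 with GmbHLHm1. It rose by 0.60 ± 0.11 (SE; limma adjusted p = 0.0155), but its call was lost without the first or second empty vector array or the third GmbHLHm1 array, where the adjusted p reached 0.0679. HAP1, the heme-responsive activator gene, fell by 0.30 ± 0.07 (SE; limma adjusted p = 0.0379), from 11.73 to 11.43, and passed in only 1 of the 6 fits that left out an array, the one without GmbHLHm1 replicate 1; the adjusted p of HAP1 reached 0.141 in the others. ROX1 and MOT3, repressor genes of the low-oxygen response, were not past the test, and neither were HRD1 and HRD3, whose products degrade Hmg2.

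Of 27 genes for sterol ester breakdown, acetylation and transport, 3 rose and 1 fell, with a median change of 0.02. These 4 were 14.8% of the list, near the 12.1% of all tested genes. The secreted proteins Pry1 and Pry2 bind sterols and take part in their export. PRY2 rose by 2.49 ± 0.10 (SE), from 7.91, 7.87 and 8.23 to 10.51, 10.52 and 10.45, and passed in each fit without 1 array. PRY1 rose by 0.85 ± 0.17 (SE; limma adjusted p = 0.0193), from 10.35, 10.43 and 10.28 to 10.86, 11.59 and 11.17, and lost its call without any 1 of the empty vector arrays or without GmbHLHm1 replicate 3 (up to 0.0834). PRY3, the remaining gene of that family, had a change of -0.08 ± 0.06 (SE) and overlapping groups. PDR16, a lipid transfer protein gene that affects sterol synthesis and azole tolerance, rose by 0.53 ± 0.05 (SE; limma adjusted p = 0.000967), and LAM4, for a protein that moves sterol at membrane contact sites, fell by 0.22 ± 0.06 (SE; 0.0492). The LAM4 call was lost in 5 of the 6 fits that left out an array, all but that without GmbHLHm1 replicate 1.

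Branches that leave the pathway at farnesyl diphosphate or its precursors held 12 genes, of which 2 rose and none fell (16.7% against 12.1% of all tested genes). NUS1, a subunit gene of the enzyme that makes dolichol precursors, rose by 0.24 ± 0.05 (SE; limma adjusted p = 0.0275), and MOD5, which adds an isoprenoid group to transfer RNA, by 0.20 ± 0.05 (SE; 0.0402). In the fits without 1 array, NUS1 lost its call without the first or the third empty vector array or the third GmbHLHm1 array (up to 0.121), and MOD5 kept it only without GmbHLHm1 replicate 3 (up to 0.154 otherwise). Heme is needed by Erg11 and Erg5, and none of the 8 heme synthesis genes passed limma's test, nor did any reach an unadjusted p of 0.05, which 26.9% of all tested genes did. HEM13, a heme synthesis gene that low oxygen and lack of heme raise, had a change of 0.03 ± 0.05 (SE; limma adjusted p = 0.713).

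Of 8 cell wall genes of low oxygen, part of which Upc2 is known to activate, 3 rose and 2 fell. That was 62.5% of this short list, against 12.1% of all tested genes. The list was chosen with earlier results of these data known, so this share is not an independent result. TIR3 rose by 1.00 ± 0.12 (SE; limma adjusted p = 0.00288), from 10.04, 10.16 and 10.20 to 10.89, 11.40 and 11.12, and DAN1 rose by 2.36 ± 0.24 (SE). Both passed in each fit without 1 array. TIR1 rose by 0.64 ± 0.14 (SE; limma adjusted p = 0.0259), while TIR2 fell by 0.47 ± 0.12 (SE; 0.0452) and TIR4 by 0.27 ± 0.07 (SE; 0.0487). Each of these 3 calls was lost without the first or the third empty vector array or the third GmbHLHm1 array. TIR1 and TIR4 were also lost without empty vector replicate 2, and TIR2 without GmbHLHm1 replicate 2, and the highest adjusted p in these fits was 0.166, for TIR4. DAN4, PAU23 and PAU24 did not pass, and the last pair belong to a family of near-identical genes whose probe sets may share signal.

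**Figure D5:**
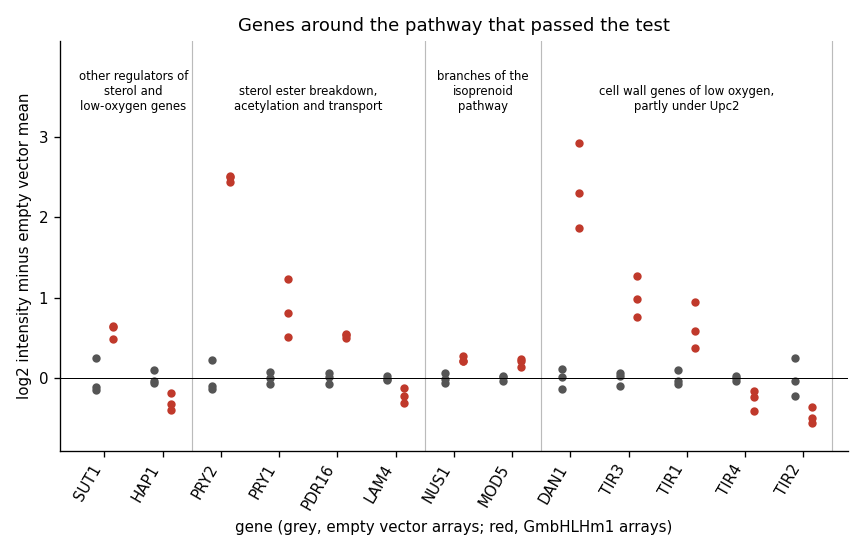
Log2 intensity of the genes outside the 32 that passed the test at an adjusted p of 0.05, on each array, minus the gene's empty vector mean (grey, empty vector; red, GmbHLHm1), grouped by list. PRY2 and DAN1 lie farthest above the control mean on the GmbHLHm1 arrays, and HAP1, LAM4, TIR4 and TIR2 lie below it.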

How the data were processed

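The authors deposited 1 intensity per probe set and array, computed with RMA per the submitters' processing notes. RMA corrects background, quantile normalizes and summarises probes, which hides any shift shared by all transcripts. The software version is not given in the sources used here, and the linear scale was read from the values (5.00 to 28314). No column was left unmapped. The platform annotation names 7245 of 10928 probe sets, of which 5498 matched S. cerevisiae gene identifiers of assembly R64, used for names and neighbours only. For 5449 genes the probe set with the highest mean over the 6 arrays was taken. The 1746 named probe sets with other identifiers served as background (95th percentile per array, 23.2 to 26.9 in intensity).

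The test on log2 values was that of limma 3.58.1, run in R 4.3.3 (lmFit, eBayes, no block, no filter, two-sided, Benjamini-Hochberg over 5449 genes, threshold 0.05). Intervals are 95% from the moderated fit, and standard errors are moderated. The main limma fit was tested on simulated data with independent noise and the same SD in both groups. Unequal spread between the groups was thus not covered. Genes given array by array are those past the test, the one with the largest absolute change in each of 7 step groups and both members of each paralog pair; IDI1, ERG9, ERG3, ERG11, ERG4 and CYB5 were added after their values were seen. Each further list has its 3 highest and 3 lowest genes past the test named, where there are as many; ROX1, MOT3, HRD1, HRD3, PRY3, HEM13, DAN4, PAU23 and PAU24, not past it, were added later. The genes and lists were chosen with earlier results of these data known. Alternatives were 2 scalings, a filter on dim probe sets, 3 variance models, 2 probe set rules, other thresholds, a replicate block and leaving out each array. The planned motif search was not run, as promoter sequences were not used here. Having 3 arrays per group limits the precision. Figures used matplotlib 3.10.9 in Python 3.11.15.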

Additional observations from a re-analysis of the deposited data

How the results depend on the processing

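Among the 32 sterol genes 2 rose and 2 fell. The rises of ERG1 and ERG6 passed in all 15 alternative fits and at an adjusted p of 0.01. The count of rises was 3 with quantile normalization, array weights, no moderation or an adjusted p of 0.1, and 4 with a trend and robust prior; leaving out 1 array gave 2 to 3. The count of falls was more variable. It was 5 with median centring and with array weights, 8 with a trend and robust prior, and 6 at an adjusted p of 0.1. It was 0 at 0.01, with the fit and adjustment over all probe sets, or with a replicate block. Leaving out 1 array gave 0 to 3. With median centring the split was thus 2 higher and 5 lower, or 21.9% of the 32, where 12.0% of all genes passed. With array weights 25.0% of the 32 passed against 15.1% of all genes. The trend and robust prior gave 12 (37.5%) against 15.0%, ERG11, ERG24 and ERG25 among them. At an adjusted p of 0.1 there were 9 (28.1%) against 18.1%. With the replicate block 6.25% of the 32 passed against 7.84%, and with the fit and adjustment over all probe sets 6.25% against 6.4%. The adjusted p of HMG1 was 0.064 without moderation, 0.0641 over all probe sets and 0.0507 with the block, and that of ERG28 was 0.0689 over all probe sets and 0.0635 with the block. The number of negative changes stayed between 19 and 21 of 32 in all 15 fits, with medians of -0.12 to -0.04. The difference in the HMG1/HMG2 ratio was -0.36 to -0.28 without 1 array and -0.34 with quantile normalization, and that in the ARE1/ARE2 ratio 0.19 to 0.38 and 0.27; those of UPC2/ECM22 and AUS1/PDR11 took either sign, at -0.08 to 0.08 and -0.02 to 0.06 without 1 array.

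Replicate numbers did not pair the arrays: deviations of same-numbered arrays correlated at -0.065, -0.082 and 0.141. With the replicate block 427 genes passed in place of 659. Leaving out 1 array gave fewer calls over all genes when it was an empty vector array or GmbHLHm1 replicate 3, and more when it was GmbHLHm1 replicate 1 or 2 (251 to 723). The setting over all probe sets fitted all 10928 of them. That makes more tests and also estimates the variance prior of limma anew, and the part of each was not tested. For the other settings the cause was not tested either.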
